A study of Mus musculus and Homo sapiens with 10 samples.

Results

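L1Md_A is a subfamily of mouse L1, the family of autonomous retrotransposons that copy themselves into DNA through an RNA intermediate. The members described here are the 3133 copies that the deposited list of single L1 copies longer than 5 kb assigns to L1Md_A, out of 14949 mouse L1 copies in 36 subfamilies. The subfamily name in the list was the only criterion, and no measured value entered it. RNA was sequenced from the mouse embryonic stem (ES) cell line ES3, of strain C57BL/6, 4 days after transduction with a lentivirus carrying a hairpin against Gm6871 (2 libraries, called knockdown below) or an empty hairpin vector (2 libraries, called control). Gm6871 is a KRAB zinc finger protein. Its binding sites were taken from 1 anti-HA ChIP-seq library of ES3 cells that overexpressed an HA-tagged Gm6871 from a vector induced with doxycycline for 2 days. A ChIP-seq library of wild-type J1 ES cells, of strain 129S4/SvJae, gave the sites of KAP1, a corepressor brought to DNA by proteins of this class. The 2 ChIP libraries and the RNA therefore come from different cultures, and KAP1 from another line and strain. The name of the KAP1 peak list also holds the term 2i, which points to a culture medium. Whether the other cultures shared this medium was not checked.

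A complete L1 copy encodes an RNA-binding protein and a protein with endonuclease and reverse transcriptase activity. In the L1Md_A subfamily the promoter lies in short tandem repeats, called monomers, at the 5′ end. L1Md_A, L1Md_T and L1Md_Gf are the young mouse subfamilies known to hold copies that can still move, while L1Md_F copies are older. In ES cells L1 is known to be held down by DNA methylation and by histone methylation that KAP1 and its partner enzymes lay down. Copies of a young subfamily are close to identical, so a short read often fits many of them.

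The libraries held 51415125 and 66050821 reads in knockdown 1 and 2, and 37198636 and 63023969 reads in control 1 and 2, as worked out from the deposited RPKM values (reads per kilobase of the copy, scaled to a library total). Markers of pluripotent cells were high in all 4 libraries, with a summed level of 5994 to 7572 RPKM over 9 genes. Dppa5a alone gave 3194 to 4719 RPKM of this and Pou5f1 888 to 1175 RPKM, and 1 of the 9, Esrrb, was listed near 0. The summed level of 7 fibroblast markers was 15.7 and 1.86 RPKM in knockdown 1 and 2, and 17.1 and 2.37 RPKM in control 1 and 2, so both libraries numbered 1 were the higher ones. The summed level of 5 primitive endoderm markers was 205 and 116 RPKM in the knockdown and 219 and 241 RPKM in the controls. Nearly all of it was Sparc, a matrix protein gene that other cells also express, with 204 and 114 RPKM in the knockdown and 217 and 238 RPKM in the controls, while Gata4 lay between 0.516 and 0.860 RPKM. No entry of the gene table matched Gm6871 (0 entries), so the knockdown itself was not checked. The replicates are not stated to come from separate cultures, and the p-values then measure only the spread between these samples.

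A single copy carried most of the RNA counted on L1Md_A. This copy, 6021 bp long at chromosome 3, 33517891 to 33523911 in mm9, had 273.0 and 257.1 RPKM in the knockdown libraries and 273.0 and 288.2 RPKM in the controls. It took 84519 of 112110 and 102247 of 151298 L1Md_A reads in knockdown 1 and 2 (75.4%, exact binomial 95% interval 75.1 to 75.6%, and 67.6%, 67.3 to 67.8%). In the controls it took 61144 of 72780 and 109374 of 164419 reads (84.0%, 83.7 to 84.3%, and 66.5%, 66.3 to 66.7%). These intervals and all others below cover counting error only. The copy with the next highest mean, at chromosome 8, 44235734 to 44240936, had 0.725 and 1.56 RPKM in the knockdown and 0.398 and 0.961 RPKM in the controls. No annotation of mm9 genes was used here, so what else lies at the copy on chromosome 3 is not given. Its level differed between the groups by a log2 difference of -0.08 (SE 0.22, limma adjusted p = 1.00), and control 1 had the same level as knockdown 1.

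**Figure D1:**
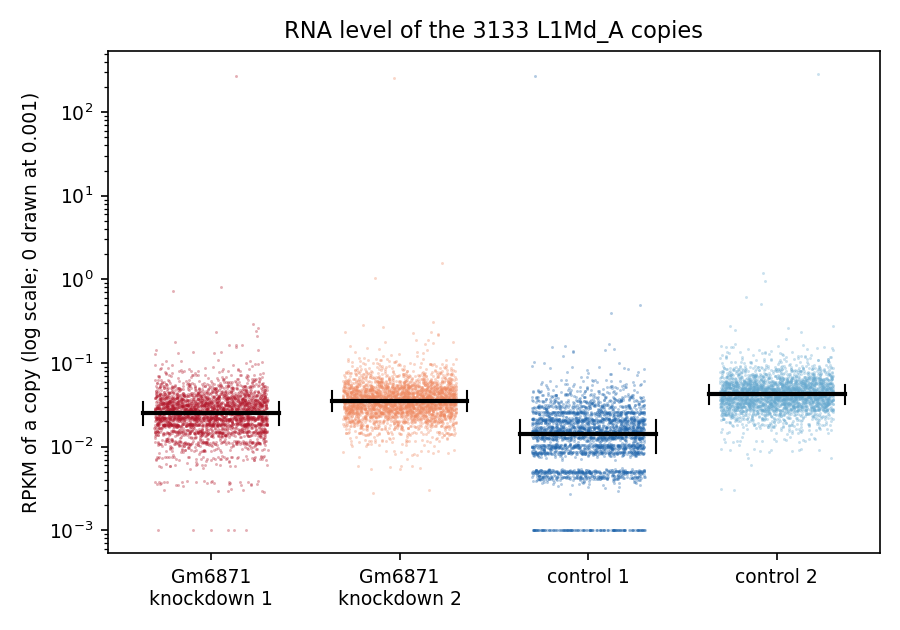
RPKM of each of the 3133 L1Md_A copies (points, log scale, copies with 0 drawn at 0.001) in the 2 Gm6871 knockdown and the 2 control libraries; the thick bar is the median and the thin side bars span the quartiles. The bulk of the copies lies near medians of 0.0252, 0.0350, 0.0143 and 0.0421 RPKM, and 1 copy stands above 250 RPKM in every library.

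The other copies were low and close to each other. Of the 3133 copies, 2873 (91.7%) had a mean over the 4 libraries under 0.05 RPKM, 234 lay between 0.05 and 0.1 RPKM, and 26 (0.830%) reached 0.1 RPKM, of which 3 reached 0.5 RPKM. The median copy had 8 and 14 reads in the knockdown libraries and 3 and 16 reads in the controls. In knockdown 1 and 2, 6 and 0 copies had no read, and in control 1 and 2, 151 and 0 copies had none. In control 1 a count of 0 allows a level of up to 0.0134 RPKM for a copy of median length (3 reads), which is close to the median level there. None of the copies was at 0 in all 4 libraries. After the copy on chromosome 3, the next 9 copies held 3.28% and 3.26% of the remaining reads in the knockdown and 3.04% and 2.90% in the controls.

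Among the 3107 copies under 0.1 RPKM, the variance of the read number over copies was 2.35 and 3.40 times its mean in the knockdown libraries and 1.88 and 3.25 times in the controls, where pure counting of equal copies would give 1. The order of the copies was shared between libraries to a limited degree. Spearman's rho over the 3133 copies ran from 0.344 (knockdown 1 with control 1) to 0.503 (knockdown 2 with control 2), while over the 11816 other L1 copies it ran from 0.804 to 0.924. These values are a description of copies that share libraries, and the low read numbers of L1Md_A limit how high they can be. The sources used here do not say how reads that fit several copies were placed, and the part of that step in this evenness was not tested.

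The place of L1Md_A among the subfamilies changed with the library. Among the 11 subfamilies with at least 100 copies, ordered from the highest median, L1Md_A was number 9 in knockdown 1 and number 5 in knockdown 2, and number 11 in control 1 and number 3 in control 2. Averaged over the libraries its median was 0.0292 RPKM. L1Md_T, at 0.1005, and L1Md_Gf, at 0.0978, stood highest by this average, and L1Md_F3, Lx, L1_Mus4 and L1_Mus1 lay between 0.0285 and 0.0335 RPKM, within the spread between the libraries. A mean of at least 0.1 RPKM was reached by 0.830% of L1Md_A copies, against 50.1% of L1Md_T, 50.8% of L1Md_Gf and 6.01% of L1Md_F2 copies. The L1Md_A share was the lowest of the 11 subfamilies, and this difference was not tested.

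**Figure D2:**
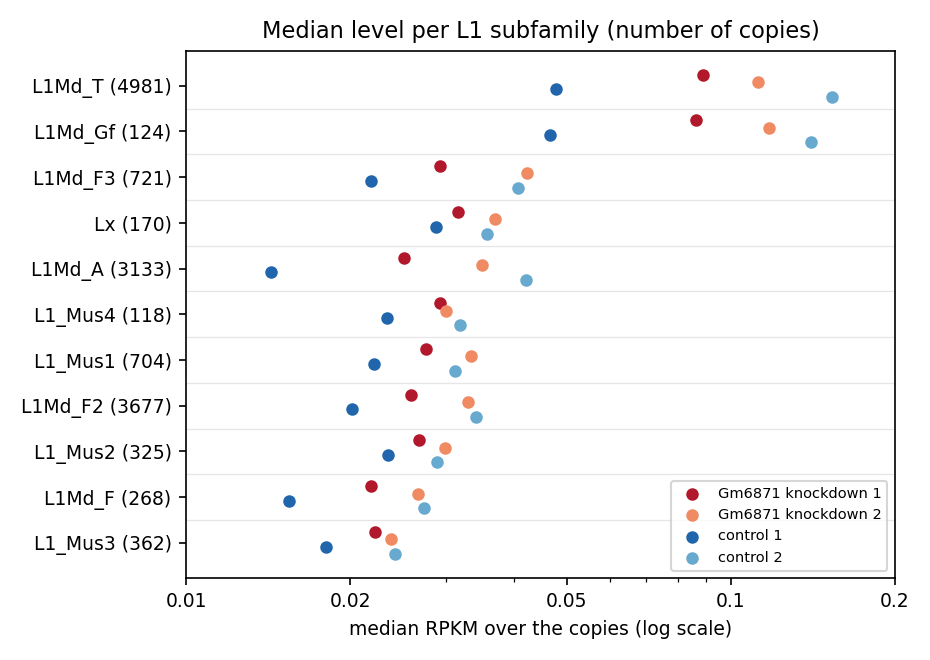
Median RPKM over the copies of each L1 subfamily with at least 100 copies (log scale, number of copies in brackets), with 1 point per library. L1Md_A, at 0.0143 RPKM in control 1 and 0.0421 RPKM in control 2, spreads as widely between the controls as L1Md_T and L1Md_Gf, while the other subfamilies spread less.

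The 2 controls differed more from each other than the knockdown libraries did. The median L1Md_A copy stood at 0.0252 and 0.0350 RPKM in knockdown 1 and 2 and at 0.0143 and 0.0421 RPKM in control 1 and 2. Both knockdown libraries thus lay between the controls. Control 2 was 2.94 times control 1, and 3042 of the 3133 copies (97.1%) were higher in control 2, against 86.6% of the other L1 copies. Knockdown 2 was 1.39 times knockdown 1, and 2435 copies (77.7%) were higher in knockdown 2. The gap between the controls was 3.21 times for L1Md_T and 3.02 times for L1Md_Gf, and between 1.23 (L1_Mus2) and 1.86 times (L1Md_F3) for the 8 other subfamilies. For genes the median ratio of control 2 to control 1 was 0.978 and that of knockdown 2 to knockdown 1 was 0.984.

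The 3 young subfamilies kept nearly fixed proportions through these shifts. The L1Md_A median was 0.291 and 0.297 times the L1Md_Gf median in knockdown 1 and 2, and 0.307 and 0.300 times in control 1 and 2. Relative to L1Md_T it was 0.283 and 0.312 times in the knockdown, and 0.300 and 0.275 times in the controls. Relative to L1Md_F2 it was 0.974 and 1.06 times in the knockdown, and 0.710 and 1.24 times in the controls, so L1Md_A moved apart from this older subfamily between the controls. The summed fibroblast markers were high in the libraries numbered 1, which were also the lower ones of each group in L1Md_A. Of the 7 markers, Thy1 went the other way in the controls, with 1.38 RPKM in control 1 and 1.92 RPKM in control 2. The part of those cells in the L1 level was not tested. In bulk RNA, fewer expressing cells and less RNA per cell cannot be told apart.

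The comparison of knockdown and control asks what Gm6871 does to L1 RNA. Over all 3133 copies, mean L1Md_A was 0.119 ± 0.00419 RPKM in the knockdown and 0.121 ± 0.0247 RPKM in the controls (SD, n = 2 each), a log2 difference of -0.02 (SE 0.18, limma adjusted p = 0.941 over 23 subfamilies). This mean is largely the copy on chromosome 3. Without it, a choice made after seeing the data, the mean was 0.0287 and 0.0397 RPKM in the knockdown and 0.0168 and 0.0468 RPKM in the controls, and the log2 difference was 0.17 (SE 0.37, limma adjusted p = 0.890). The groups overlapped by either measure, and the exact two-sided permutation test over libraries gave p = 1, where the smallest p that 2 against 2 libraries allow is 0.333. No subfamily was called in either fit, a background of 0% (limma, 0 of 23 with an adjusted p under 0.05, and 0 with an unadjusted p under 0.05 in the fit with all copies). Without the highest copy, the L1Md_A difference was 0.71 when control 2 was also left out and -0.37 when control 1 was also left out. With 1 control left, the spread between the controls does not enter these fits.

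Of the 3133 copies, 26 had the mean of 0.1 RPKM needed for a test of single copies. The lowest mean inside this limit was 0.1002 and the highest outside it 0.0995 RPKM. By limma, 0 of the 26 were called in either direction, and 0 had an unadjusted p under 0.05. Voom on the whole reads called 0 as well, with 0 at an unadjusted p under 0.05. Over all L1 copies tested, 0.0947% were called higher and 0% lower. The median log2 difference was 0.16 over the 26 L1Md_A copies, of which 20 were above 0, and 0.07 over all 3167 L1 copies, of which 2184 were above 0. With no filter all 3133 copies entered, 0 were called by limma, with 8 (0.255%) at an unadjusted p under 0.05, and 0 by voom, with 19 (0.606%). Of all 14949 L1 copies, 0.0134% were called by limma and 0% by voom, and 0.522% and 0.549% had an unadjusted p under 0.05 by limma and by voom. This outcome rested on having both controls. Without control 1, limma called 2 of the 26 copies lower (7.69%) and 0 higher, against 0.505% and 0.0947% of all tested L1 copies. Without control 2 it called 8 of the 26 higher (30.8%) and 0 lower, against 49.4% and 0.0632% of all tested L1 copies, so the L1Md_A share of higher calls was below the background.

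Among tested copies with a positive difference, the 5 of smallest p had log2 differences of 0.50 to 0.73. The copy at chromosome 4, 38008236 to 38014899, had 0.239 and 0.289 RPKM in the knockdown and 0.0887 and 0.155 RPKM in the controls (log2 difference 0.73, SE 0.62, limma adjusted p = 1.00). Its groups did not overlap. The copy at chromosome 3, 21216711 to 21223537, had 0.162 and 0.237 RPKM in the knockdown and 0.0788 and 0.130 RPKM in the controls (0.55), and that at chromosome 10, 55464566 to 55469933, had 0.264 and 0.223 against 0.160 and 0.106 RPKM (0.57). Neither of these overlapped between the groups, and neither passed. Picking copies by smallest p favours groups without overlap, and the share of all tested copies without overlap was not counted. Over all 14949 L1 copies, tested or not, both knockdown libraries lay above both controls for 10.4% and below both for 4.61%. The copies on chromosome 8 described above (0.69) and at chromosome 19, 39316997 to 39323748 (0.50), overlapped.

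On the lower side, the smallest p belonged to a copy at chromosome 14, 44040285 to 44045643. It had 0.0363 and 0.110 RPKM in the knockdown and 0.0451 and 0.619 RPKM in the controls (log2 difference -0.93, SE 0.60, limma adjusted p = 1.00). Only control 2, with 209 reads, was high, while control 1 had 9 reads. Without control 1 the log2 difference of this copy was -2.09, and without control 2 it was 0.22. With 1 control left, the spread between the controls does not enter the fit. A copy at chromosome 6, 5014781 to 5019963, had 0.233 and 0.146 RPKM in the knockdown and 0.156 and 0.514 RPKM in the controls (-0.47), and control 2 was again the high library. The copies at chromosome X, 80081028 to 80086164 (-0.30), and chromosome 2, 13950777 to 13956959 (-0.08), completed the 5 with the copy of highest level. The chromosome X copy did not overlap between the groups and did not pass. It had 0.0833 and 0.0855 RPKM in the knockdown and 0.0994 and 0.158 RPKM in the controls.

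**Figure D3:**
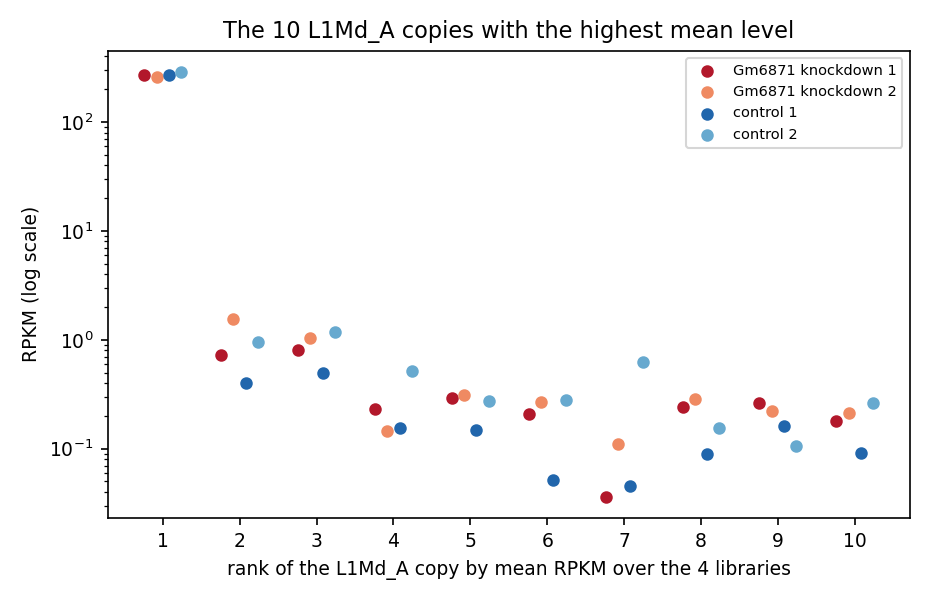
RPKM (log scale) of the 10 L1Md_A copies with the highest mean over the 4 libraries, with 1 point per library. The copy ranked 1 lies at 257.1 to 288.2 RPKM, and the others lie at or below 1.56 RPKM, with control 1 the lowest library for 6 of ranks 2 to 10.

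Counted over all copies with no filter, both knockdown libraries were above both controls for 233 L1Md_A copies (7.44%) and below both for 81 (2.59%). Over all L1 copies these shares were 10.4% and 4.61%, so the L1Md_A shares were the smaller ones in both directions. After each library was divided by its median over all L1 copies, a choice made after seeing the data, the L1Md_A counts were 494 (15.8%) and 381 (12.2%), against 13.5% and 11.6% of all L1 copies. The L1Md_A shares were then the larger ones, so their place relative to all L1 copies depends on the scaling.

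KAP1 peaks lay on a minority of L1Md_A copies and at their ends. A peak overlapped 215 of the 3133 copies (6.86%, exact 95% interval 6.00 to 7.80%), and 0 copies had more than 1. Over all L1 copies the share was 12.7%. It was 10.4% (9.58 to 11.3%) for L1Md_T and 24.6% (23.2 to 26.0%) for L1Md_F2, and the 3 intervals do not overlap, although with 1 ChIP library they cover counting error only. The KAP1 list carries a name that points to reads with a single position. Reads that fit several copies may then be missing, and the part of read placement in these shares was not tested. A further 51 copies had no peak of their own but 1 within 1000 bp. By length, the share was highest, at 8.62%, for copies from 6000 up to 6500 bp (88 of 1021) and lowest, at 4.35%, for copies from 5500 up to 6000 bp (22 of 506). It was 7.24% under 5500 bp (76 of 1049), 5.39% from 6500 up to 7000 bp (24 of 445) and 4.46% from 7000 bp on (5 of 112). By chromosome it ranged from 4.23% (chromosome 8, 6 of 142 copies) to 11.4% (chromosome 13, 14 of 123 copies), leaving out chromosome Y with 0 of 7 copies.

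Nearly all of these peaks crossed an end of the copy. Of the 215 peaks, 209 (97.2%) extended beyond the copy. The midpoint of 171 peaks lay inside, at a median of 193 bp from the nearer end. Of these 171, 167 were within 500 bp of an end (97.7%, 94.1 to 99.4%), where even placement along the copies would put 17.0%. The corresponding shares were 88.5% (84.5 to 91.8%) of 321 midpoints on L1Md_T and 78.8% (75.9 to 81.5%) of 840 on L1Md_F2. Only 1 midpoint on L1Md_A lay 1000 bp or more inside. Per 100 copies and kilobase, midpoints numbered 7.34 in the outermost 250 bp of L1Md_A copies and 3.32 in the next 250 bp, 0.0958 from 500 to 1000 bp inside, and 1.34 in the 500 bp outside. Farther out, from 2 to 5 kb, the density was 1.01, so the inner part of the copies was below the flanks. The table of copies gives no strand, so the 5′ and 3′ ends are not told apart. As for the shares, the part of read placement in this pattern was not tested.

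**Figure D4:**
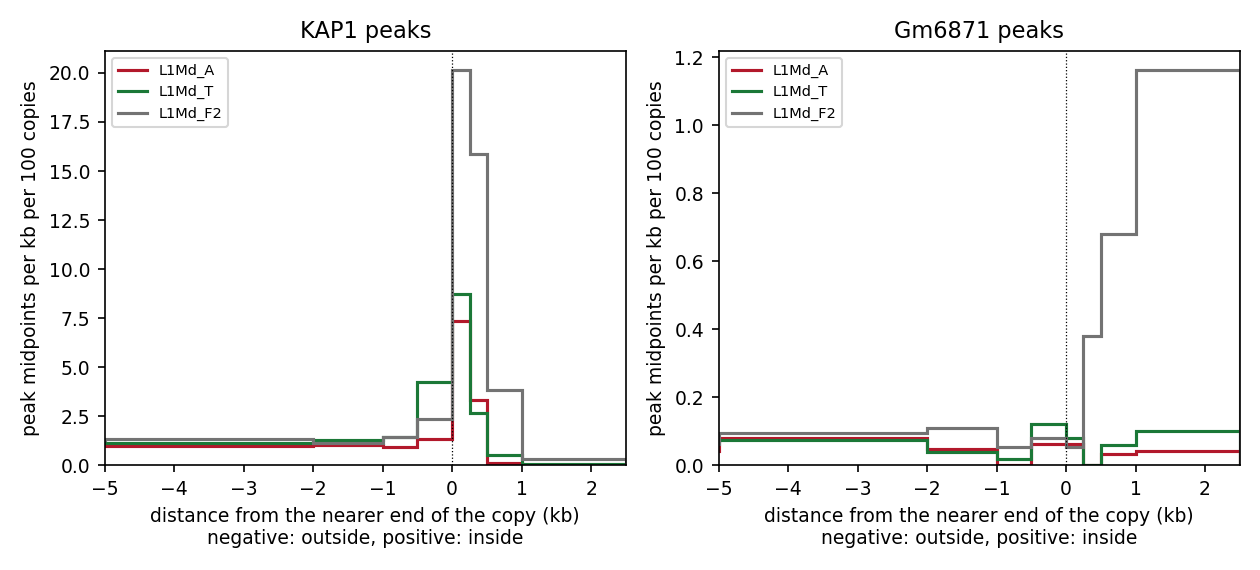
Density of KAP1 (left) and Gm6871 (right) peak midpoints per kilobase per 100 copies against the distance from the nearer end of the copy (negative outside, positive inside), for L1Md_A, L1Md_T and L1Md_F2. The KAP1 density on L1Md_A is 7.34 in the outermost 250 bp and 0.0958 from 500 to 1000 bp inside, and Gm6871 midpoints on L1Md_A stay at or below 0.0798 throughout.

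The KAP1 peaks on L1Md_A had high scores within their list. The score is that of the authors' peak caller. Its median was 249 (quartiles 95.7 and 583) for the 215 peaks on L1Md_A, against 99.7 for 528 peaks on L1Md_T, 122 for 932 peaks on L1Md_F2 and 103 for all 45049 peaks. Of the L1Md_A peaks, 85 (39.5%, 33.0 to 46.4%) were among the top 10% of the list, which begins at a score of 377, while 9.09% of those on L1Md_T and 14.3% of those on L1Md_F2 were. The highest score on an L1Md_A copy was 3168, at chromosome 3, 134819690 to 134826017, close to the highest of the list, 3230. This peak overlapped the copy by 518 of its 1133 bp, and its midpoint lay outside the copy. That copy had 0.0307 and 0.0526 RPKM in the knockdown and 0.00850 and 0.0451 RPKM in the controls. Next came copies at chromosome 9, 88546628 to 88552258 (3100), and chromosome 9, 88896717 to 88903192 (2882), whose RNA levels were at most 0.0902 RPKM in any library. Copies at chromosome 6, 95759851 to 95764874 (1933), and chromosome 18, 25411507 to 25417919 (1868), completed the 5. The peak at the chromosome 6 copy overlapped it by 90 of 1266 bp, with its midpoint outside. The midpoints of the peaks named on chromosomes 9 and 18 lay inside their copies.

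Copies with a KAP1 peak had more RNA than copies without one in each of the 4 libraries. The median was 0.0333 RPKM with and 0.0245 RPKM without a peak in knockdown 1, and 0.0421 with and 0.0344 without in knockdown 2. It was 0.0205 with and 0.0138 without a peak in control 1, and 0.0521 with and 0.0413 without in control 2. The ratio of the medians was 1.36 and 1.22 in the knockdown and 1.48 and 1.26 in the controls. For L1Md_T the same ratio was 1.01 to 1.12, and for L1Md_F2 1.14 to 1.19, over the 4 libraries. In reads, the median copy with a peak had 10 and 17 in the knockdown and 4 and 19 in the controls, against 7, 14, 3 and 16 in the same libraries for copies without, so the difference is a few reads per copy. Copies are not replicates, and no test over them was made.

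On the scale of mean log2(RPKM + 0.1), copies with a peak were higher by 0.15 and 0.15 in the knockdown and by 0.12 and 0.18 in the controls. The copy of highest level, on chromosome 3, has a KAP1 peak with a score of 86.6. Without it, a choice made after seeing the data, the differences were 0.099 and 0.095 in the knockdown and 0.071 and 0.13 in the controls. The knockdown minus control difference of this quantity was -0.0021 (exact two-sided permutation test over libraries, p = 1, smallest possible 0.333). By mean level over the 4 libraries, the share of copies with a KAP1 peak was 3.59% below 0.02 RPKM (13 of 362), 2.82% from 0.02 to 0.03 (38 of 1349), 10.5% from 0.03 to 0.05 (122 of 1162) and 16.2% from 0.05 RPKM on (42 of 260). The KAP1 library came from another line than the RNA, and whether copies that can be told apart by their sequence gain both peaks and reads was not tested.

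**Figure D5:**
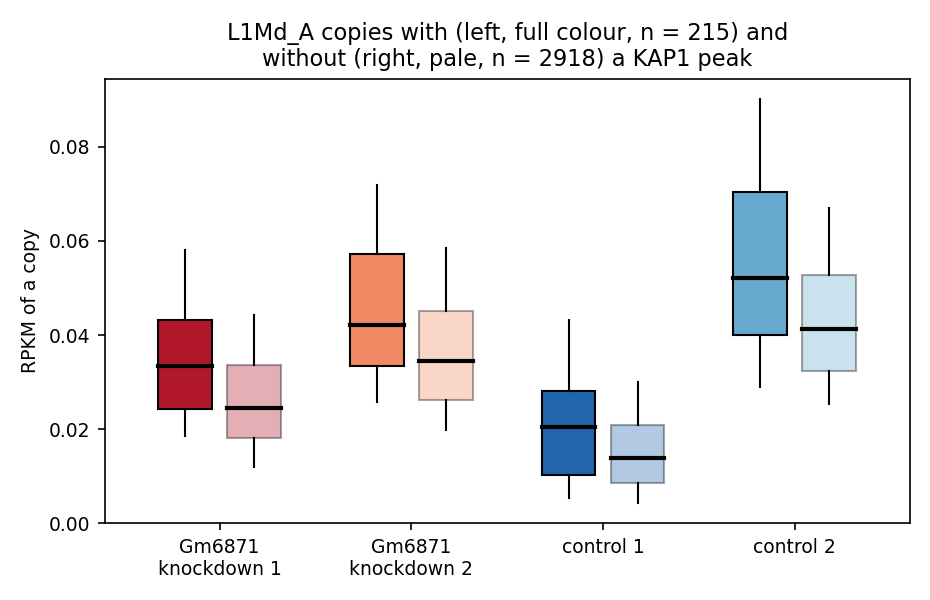
RPKM of L1Md_A copies with a KAP1 peak (full colour, 215 copies) and without one (pale, 2918 copies) in the 2 Gm6871 knockdown and the 2 control libraries; boxes span the quartiles, the thick bar is the median and whiskers reach the 10th and 90th percentiles. The median with a peak is higher in each library, for example 0.0333 against 0.0245 RPKM in knockdown 1.

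Among the 10 copies of highest level, 3 had a KAP1 peak, those on chromosome 3, at chromosome 19, 39316997, and at chromosome 14, 44040285. The KAP1-bound copies next in level were at chromosome 17, 34659393 to 34664904, with 0.145 and 0.236 RPKM in the knockdown and 0.141 and 0.161 RPKM in the controls, and at chromosome 1, 113357290 to 113362556, with 0.163 and 0.175 against 0.102 and 0.193 RPKM. Neither passed (log2 differences 0.19 and 0.14, limma adjusted p = 1.00). Among all copies with no filter, the median log2 difference was 0.02 for the 215 copies with a KAP1 peak and 0.03 for the 2918 without.

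Gm6871 peaks were rare on L1Md_A. They overlapped 8 of the 3133 copies (0.255%, exact 95% interval 0.110 to 0.503%), against 1.93% of all L1 copies, 0.442% (0.277 to 0.668%) of L1Md_T and 4.38% (3.74 to 5.09%) of L1Md_F2. The part of read placement in these shares was not tested. The scores of these 8 peaks ran from 53.5 to 142, and 2 of them reached 100, where the median of the list is 68.1. Of the 8 copies, 1 also had a KAP1 peak, at chromosome 1, 140762491 to 140768895. The peaks reached into this copy by 89 of 591 bp (Gm6871, score 142) and 225 of 1630 bp (KAP1). Both midpoints lay outside it. Of the 7 midpoints that lay inside a copy, 5 were 1000 bp or more from an end, with a median distance of 1152 bp. On L1Md_F2, where 161 copies were bound, this median was 1141 bp.

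All 8 copies with a Gm6871 peak were low in RNA, and none reached the level for a test. The copy with the peak score of 142, on chromosome 1, had 0.0364 and 0.0331 RPKM in the knockdown and 0.0168 and 0.0421 RPKM in the controls. The copy with the peak score of 140, at chromosome 2, 90229419 to 90234647, had 0.0223 and 0.0145 RPKM in the knockdown and 0.00514 and 0.0273 RPKM in the controls. Both knockdown libraries lay between the controls for these 2 copies. The copies at chromosome 2, 16182259 to 16188259, and chromosome 2, 151109062 to 151114217, ranked 3119 and 3120 by mean level among the 3133. They had 2 and 4, and 1 and 3, reads in the knockdown, against 0 and 10, and 2 and 6, reads in the controls.

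The other bound copies had between 9 and 17 reads in knockdown 2. The copy at chromosome 18, 55731693 to 55737592, had 0.0297 and 0.0436 RPKM in the knockdown and 0.0137 and 0.0323 RPKM in the controls, and that at chromosome 7, 94660402 to 94665609, had 0.0261 and 0.0291 against 0.00516 and 0.0366 RPKM. The copy at chromosome 14, 105386148 to 105391377, had 0.0223 and 0.0289 RPKM in the knockdown and 0.0206 and 0.0334 RPKM in the controls. The copy at chromosome X, 36014901 to 36021278, had 0.0274 and 0.0214 against 0.0211 and 0.0597 RPKM. In the fit with no filter the 8 log2 differences had a median of 0.0093, with 4 above 0, and all had a limma adjusted p of 1.00.

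The copies were spread over the genome. L1Md_A copies ranged from 5000 to 9892 bp, with a median of 6004 bp, and 1021 of them (32.6%) were from 6000 up to 6500 bp long. The copies of this length class had the highest median level in every library, 0.0289 and 0.0404 RPKM in the knockdown and 0.0169 and 0.0475 RPKM in the controls, while the other 4 classes lay at 0.0224 to 0.0237 and 0.0301 to 0.0346 RPKM in the knockdown, and at 0.0108 to 0.0154 and 0.0380 to 0.0420 RPKM in the controls. The longest copy, at chromosome 4, 61339727 to 61349618, had 0.0197 and 0.0184 RPKM in the knockdown and 0.00272 and 0.0417 RPKM in the controls. Chromosome X held the most copies, 345 (11.0%, 9.94 to 12.2%), against 11.6% of the other L1 copies. Over the 20 chromosomes with at least 40 copies, the median level ran from 0.0222 to 0.0275 and from 0.0328 to 0.0391 RPKM in knockdown 1 and 2, and from 0.0122 to 0.0157 and from 0.0384 to 0.0455 RPKM in control 1 and 2. This range is narrower than the gap between the controls. Another listed L1 copy lay within 10000 bp of 637 L1Md_A copies (20.3%), and for 130 of these the nearest one was itself L1Md_A.

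Genes known to act on L1 were read from the gene table. Of a list of 34, 32 were in the table and 26 reached the 0.5 RPKM needed for a test. By limma, 0 of the 26 were called, as were 0% of all 11658 genes, and 2 of the 26 had an unadjusted p under 0.05, beside 223 of all genes. The median log2 difference was -0.15 over the 26, of which 20 were below 0, and -0.0026 over all genes. Dnmt3b, a de novo DNA methyltransferase, had 1.47 and 0.765 RPKM in the knockdown and 2.12 and 2.87 RPKM in the controls (log2 difference -0.91, SE 0.33, limma adjusted p = 0.997). Rnaseh2c, a subunit of ribonuclease H2, had 22.6 and 24.05 against 46.0 and 40.4 RPKM (-0.87, limma adjusted p = 0.997). Neither gene overlapped between the groups, and neither passed. They are the 2 with an unadjusted limma p under 0.05, a choice that favours groups without overlap. Other genes of the list did not overlap either. Among those tested, Dnmt3a, Atf7ip, Suv39h2 and Cbx5 were below both controls in both knockdown libraries, and Tet2 was above both. Setdb1, which was not tested, was below both. The share of all genes without overlap was not counted.

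The gene of KAP1, Trim28, had 711 and 548 RPKM in the knockdown and 627 and 960 RPKM in the controls, and the groups overlapped (-0.31). L1td1, which encodes a protein derived from an L1 RNA-binding protein, had 269.6 and 236.8 RPKM in the knockdown and 257.4 and 388.8 RPKM in the controls (-0.32). Both were highest in control 2, the library with the highest L1Md_A median. Of the genes given next, Morc2a was also highest in control 2, while Dnmt3a and Mov10 were highest in control 1, where that median was lowest. A link with the L1 level was not tested. Dnmt3a, another de novo DNA methyltransferase, had 2.57 and 1.54 against 2.92 and 2.58 RPKM (-0.37). Morc2a, which acts with the HUSH silencing complex, had 6.17 and 4.39 RPKM in the knockdown and 5.78 and 6.31 RPKM in the controls (-0.20). Mov10, an RNA helicase that restrains L1, had 0.360 and 0.595 against 0.810 and 0.391 RPKM (-0.15). None of these passed (limma adjusted p = 0.997). The H3K9 methyltransferase gene Setdb1 was listed at 0.176 to 0.256 RPKM, the maintenance methyltransferase gene Dnmt1 at 0.113 to 0.149 RPKM and its partner Uhrf1 at 0 in all 4 libraries. These entries are given only as listed.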

How the data were processed

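The authors deposited RPKM values for single L1 copies and for RefSeq entries, and 1 peak list with a score per peak for each ChIP library. Per the labels' protocols, the RNA was cytoplasmic, DNase-treated and poly(A)-selected. The submitters' processing notes name Bowtie 0.12.5 and the build mm9. The peak names point to MACS. For the counter, the placement of reads with several positions and the use of the inputs, the sources used here give nothing. The inputs and the human samples were not used here, nor were 8 columns of the authors' means and fold changes.

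Whole reads were worked out from RPKM and copy length, since 1 total per library turned 100% of the L1 values into whole numbers within 0.01 reads. They served for read numbers and for voom. Knockdown and control were set against each other on log2(RPKM + pseudocount), using limma 3.58.1 (R 4.3.3) fitted on all L1 copies with a mean RPKM of at least 0.1 (pseudocount 0.1), all subfamilies with at least 10 copies (mean over copies, 0.01) or all genes with a mean of at least 0.5 (0.5), with Benjamini-Hochberg adjustment at 0.05. A log2 difference on this scale understates changes of low copies. A variance trend was used for copies and genes, and the estimated prior degrees of freedom for copies were infinite, so each copy was tested against a spread shared by copies of like level. Peaks were counted on a copy from an overlap of 1 bp, and shares carry exact Clopper-Pearson 95% intervals. Gene symbols came from a RefSeq table of GRCm38.p6 (27888 of 36083 entries matched), and its coordinates were not used. The fits were tested on simulated data that held no shift between libraries.

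Copies named in the text were those called, the 10 of highest mean, the 5 of smallest p in each direction, every copy with a Gm6871 peak, the 5 KAP1-bound copies of highest level and the 5 of highest KAP1 score, and the longest. The members, gene lists and rules were chosen with earlier results of these data known.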

Additional observations from a re-analysis of the deposited data

How the results depend on the processing

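The count of called L1Md_A copies was 0 with all 4 libraries under pseudocounts of 0.5 and 0.01, no filter, a mean of at least 0.5 RPKM, no variance trend, median centring, voom and the replicate block. With 1 library left out, where the lone library of its group is assumed to vary like the others, it ran from 0 to 8, with 2 lower without control 1 (7.69%, against 0.505% of all tested L1 copies) and 8 higher without control 2 (30.8%, against 49.4%). The difference of the L1Md_A mean, -0.02, was 0.16 without the 10 highest copies, 0.17 without the highest copy and 0.16 as a median over copies, and none passed. With 1 library left out it ran from -0.21 to 0.18, with 0.018 without knockdown 1. Without the highest copy it was 0.71 (passed) without control 2, 0.35 without knockdown 1, -0.37 without control 1 and -0.011 without knockdown 2. For 15 named copies that were tested, 123 of 123 other settings kept the direction and the side of the threshold. Of 60 fits with 1 library left out, 7 reversed the direction and 7 passed the threshold. The reversed copies ranged over these fits from -0.34 to 0.78 (chromosome X, 132166167), -1.10 to 0.16 (chromosome 6), -0.17 to 1.16 (chromosome 19), -2.09 to 0.22 (chromosome 14, 44040285), -0.30 to 0.63 (chromosome 14, 29417561), -0.038 to 0.42 (chromosome 17) and -0.12 to 0.41 (chromosome 1).

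The KAP1 share of 6.86% was 5.46% with the midpoint or at least 50% of the peak inside, 5.11% for scores of at least 100 and 5.08% for scores from the list's median up. The Gm6871 share of 0.255% was 0.0638% (2 copies) under both score limits. The KAP1 difference in mean log2 level, 0.149, was 0.35 with a pseudocount of 0.01, 0.19 for copies of at least 6 kb, 0.18 with the midpoint inside and 0.098 without the highest copy. Over copies of at least 0.1 RPKM it was 1.23. Those are only 26 copies and include the highest one, which has a KAP1 peak. The value over these copies without the highest one was not worked out. Copies with both knockdown libraries above (233) or below (81) both controls numbered 494 (15.8%) and 381 (12.2%) after scaling to the median of all L1 copies, against 13.5% and 11.6% of all L1 copies. The count of called genes on the L1 list was 0 in every fit.

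The replicate numbers are not stated to mark shared cultures. With the replicate block the counts of calls stayed at 0, and the L1Md_A difference was -0.02 (limma adjusted p = 0.922). Same-numbered libraries deviated together with r = -0.068 over tested L1 copies and 0.292 over genes. Low read numbers, with a median of 3 reads per copy in control 1, limit what single copies can show.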

Other observations

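A single copy also held most reads of 2 other subfamilies with at least 100 copies. For L1_Mus2 the highest copy held 92.1% and 88.5% of the reads in the knockdown libraries and 93.0% and 91.9% in the controls. For Lx it held 72.6% and 68.6% in the knockdown and 72.1% and 57.7% in the controls. For L1Md_T, in contrast, the highest copy held between 0.887% and 1.16% in the 4 libraries.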
